A study of Homo sapiens with 8 samples.

Results

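Growth factor and cytokine receptors pass the signals that keep myeloid cells alive, dividing and maturing, and several of them are mutated or targeted in acute myeloid leukaemia (AML). The 8 receptor genes described here, matched by symbol among the 63140 genes of the count table, were FLT3, KIT, CSF1R, CSF3R, CSF2RA, CSF2RB, IL3RA and IGF1R. They were picked by name, with earlier results of these data known. A count was recorded for 6 of them, and 5 (FLT3, CSF1R, CSF3R, CSF2RB and IGF1R) had enough counts to be tested. KIT, CSF2RA and IL3RA did not.

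The RNA came from human AML cells on day 3 after nucleofection with guide RNAs and an editor, with 8 libraries in 4 groups of 2. Cas9 ribonucleoprotein was used for knockout (KO) and a cytosine base editor (CBE) for base editing. The guides targeted HOTSCRAMBL, a long non-coding RNA, or, as the control, AAVS1, a site commonly used as a neutral target. In every group replicate 1 is labelled MOLM13 and replicate 2 OCI-AML4, and both are established AML lines; MOLM13 is known for an internal tandem duplication in FLT3. All cells, the controls included, were therefore nucleofected and given an editor, and the labels state the genotype as wild type and mention no selection, cloning or editing rate. What was sequenced was the RNA brought down by ChIRP (chromatin isolation by RNA purification), in which biotinylated probes capture an RNA and what is bound to it from fixed, sonicated lysate. The probes' target is not given in the sources used here and no input library is listed, so every level below is an amount of RNA in a pull-down. A difference can reflect how much of an RNA the cells held or how much of it was recovered, and, as in any bulk sample, fewer cells with an RNA cannot be told apart from less RNA per cell.

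FLT3, KIT and CSF1R belong to one family of receptor tyrosine kinases and answer to the FLT3 ligand, stem cell factor and the macrophage factors CSF1 and IL34. IGF1R is the tyrosine kinase receptor of insulin-like growth factors. CSF3R, the receptor of granulocyte colony-stimulating factor, has no kinase of its own and signals through JAK kinases. So does the shared beta chain encoded by CSF2RB, which pairs with CSF2RA to bind GM-CSF and with IL3RA to bind interleukin 3. The signals run through STAT5, the RAS to ERK cascade and the PI3-kinase pathway, and they are turned down by SOCS proteins and phosphatases. FLT3 and KIT mark immature blood cells, CSF1R the monocyte and macrophage branch, and CSF3R the granulocyte branch.

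Libraries held 20548300 to 37970163 counts, and 24057 genes were tested. A gene is called here when edgeR's quasi-likelihood test gave a Benjamini-Hochberg adjusted p under 0.05 over all genes tested. All adjusted p-values given are from that test unless another tool is named. The label of the cell line separated the libraries little: 119 genes (0.495%) were called between the MOLM13 and OCI-AML4 labels, none of them a receptor. Whether each label names the right line was not tested, so a pair below means libraries with the same label and no more. No row of the table carries the symbol HOTSCRAMBL, so the edit itself was not checked. Between the AAVS1 controls of the editors, edgeR called 0 genes (0% of those tested), against 918 at an unadjusted p under 0.05, 35 by DESeq2 and 1 by limma-voom. Myeloid markers were present (SPI1, the gene of PU.1, at 255 to 279 CPM in the group means, CD33 at 149 to 189). CPM are counts scaled to 1000000 per library. CD34, the stem and progenitor marker, was near 0 with a mean of 0.366 CPM. The T-cell gene CD3E, the red-cell gene HBB, the epithelial gene KRT19 and the liver gene ALB were at 0.

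Promoter windows were found for 7 of the 8 receptors in RefSeq (GRCh38.p14), each running from 250 bases before to 50 bases after an annotated start. The windows shown are those of the receptors on which the comparisons turn: CSF1R and CSF3R, each with an outer and an inner start, and FLT3. PU.1, RUNX and C/EBP proteins are the textbook regulators of myeloid receptor genes, and the inner CSF1R start is the one known from monocytes. The windows were therefore searched on both strands for GAGGAA (the core of a PU.1 site), TGTGGT (the core of a RUNX site) and TTNNGNAA (C/EBP-like), and matches are in capitals.
CSF1R, inner start, chr5:150086505-150086804, minus strand: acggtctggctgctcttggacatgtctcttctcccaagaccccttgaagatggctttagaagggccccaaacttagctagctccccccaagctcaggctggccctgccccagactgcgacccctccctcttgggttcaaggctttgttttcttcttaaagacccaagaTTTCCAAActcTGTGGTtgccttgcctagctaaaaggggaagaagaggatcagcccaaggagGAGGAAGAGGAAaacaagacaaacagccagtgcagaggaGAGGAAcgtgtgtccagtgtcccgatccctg
CSF1R, outer start, chr5:150113316-150113615, minus strand: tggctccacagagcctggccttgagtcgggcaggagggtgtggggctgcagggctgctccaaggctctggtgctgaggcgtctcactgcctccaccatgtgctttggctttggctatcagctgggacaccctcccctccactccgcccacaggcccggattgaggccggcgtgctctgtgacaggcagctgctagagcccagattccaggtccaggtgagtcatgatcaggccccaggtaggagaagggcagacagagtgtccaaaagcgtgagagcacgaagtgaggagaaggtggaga
CSF3R, outer start, chr1:36483265-36483564, minus strand: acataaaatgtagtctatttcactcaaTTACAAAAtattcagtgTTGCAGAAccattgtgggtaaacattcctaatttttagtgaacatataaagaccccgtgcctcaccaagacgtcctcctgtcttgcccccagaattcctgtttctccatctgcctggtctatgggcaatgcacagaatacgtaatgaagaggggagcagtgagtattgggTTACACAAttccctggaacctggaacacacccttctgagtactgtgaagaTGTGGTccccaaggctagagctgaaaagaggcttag
CSF3R, inner start, chr1:36482864-36483163, minus strand: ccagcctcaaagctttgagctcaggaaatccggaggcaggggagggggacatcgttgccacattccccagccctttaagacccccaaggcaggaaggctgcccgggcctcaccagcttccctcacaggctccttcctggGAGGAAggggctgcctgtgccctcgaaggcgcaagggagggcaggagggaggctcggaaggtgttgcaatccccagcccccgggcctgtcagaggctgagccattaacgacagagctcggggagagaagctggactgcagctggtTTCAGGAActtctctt
FLT3, chr13:28100527-28100826, minus strand: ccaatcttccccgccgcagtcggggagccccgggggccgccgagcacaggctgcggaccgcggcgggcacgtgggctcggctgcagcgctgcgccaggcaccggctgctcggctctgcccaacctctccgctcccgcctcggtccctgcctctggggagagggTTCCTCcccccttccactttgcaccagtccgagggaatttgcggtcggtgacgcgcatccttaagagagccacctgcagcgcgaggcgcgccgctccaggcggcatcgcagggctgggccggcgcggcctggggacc
The inner CSF1R window held 3 matches to GAGGAA, starting at -20, -14 and 19 bases from the start, of which the first 2 lie end to end. It also held TGTGGT at -71 and a TTNNGNAA match at -82. The outer CSF1R window held no match to any of these motifs. The outer CSF3R window held 1 TGTGGT and 3 TTNNGNAA matches, and the inner one 1 GAGGAA and 1 TTNNGNAA match, the latter at 34 bases past the start. FLT3 held 1 GAGGAA match, on the other strand at -87. Among the other receptors, CSF2RA held 2 GAGGAA and 1 TTNNGNAA match, IL3RA and IGF1R 1 TTNNGNAA match each, and KIT none. These letters are common: of 35093 promoter windows of this length, 27.9% held GAGGAA, 13.1% TGTGGT and 36.8% TTNNGNAA. A match describes the sequence and is not evidence that a factor was bound.

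**Figure D1:**
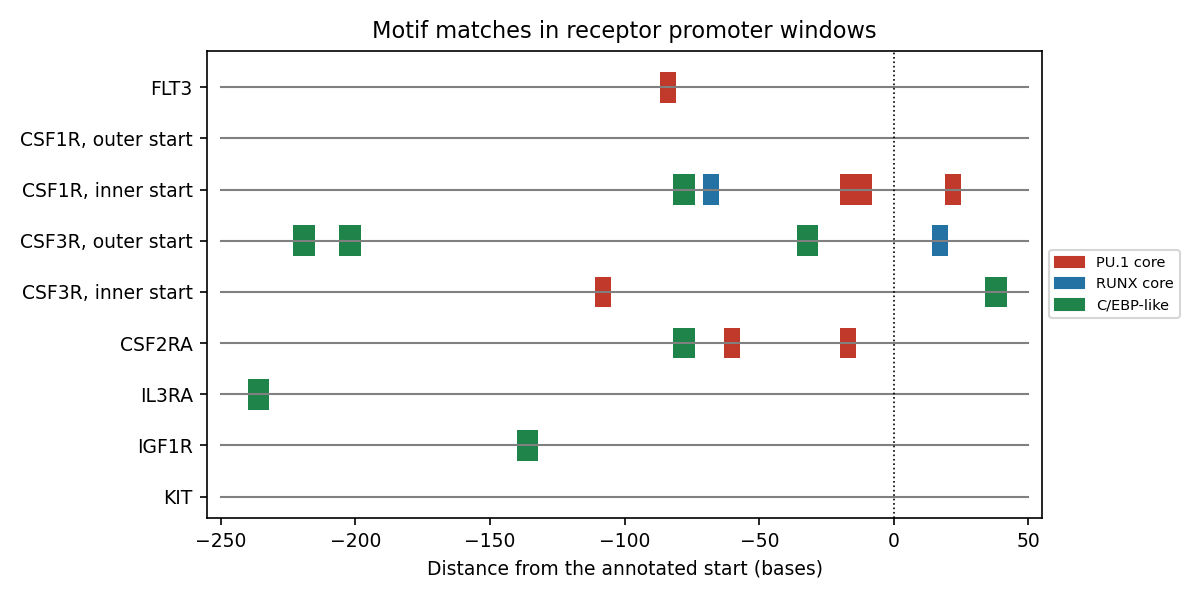
Motif matches in the promoter windows of 7 receptors, drawn by distance in bases from the annotated start (dotted line). Each coloured block is 1 match on either strand to GAGGAA (PU.1 core), TGTGGT (RUNX core) or TTNNGNAA (C/EBP-like); the inner CSF1R window holds all 3 kinds and the outer CSF1R and the KIT windows hold none.

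Per kilobase of annotated exon, CSF3R and FLT3 stood far above the other receptors. Over the 8 libraries CSF3R averaged 62.8 ± 7.48 CPM per kb (SD, n = 8) and FLT3 55.1 ± 8.48. CSF1R followed at 14.7 ± 4.7, CSF2RB at 6.42 ± 2.36 and IGF1R at 2.56 ± 0.641. The gap between FLT3 and CSF1R was clear of the spread, with a lowest FLT3 library of 41.7 and a highest CSF1R library of 24.4 CPM per kb. Ranges of CSF1R (8.42 to 24.4) and CSF2RB (3.73 to 11.3) overlapped across conditions, although CSF1R was the higher within each library. CSF2RB (lowest 3.73) and IGF1R (highest 3.71) touched. Annotated exon length counts all transcripts of a gene, so these levels are lower than they would be for the main transcript alone. The lengths used were 10594 bases for CSF3R, 4159 for FLT3, 5151 for CSF1R, 4990 for CSF2RB and 13941 for IGF1R. The lowering need not be alike between genes, and the order of the receptors depends on these lengths.

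The order of CSF3R and FLT3 was not the same in all groups. CSF3R was the higher in the 6 libraries other than HOTSCRAMBL CBE. In both HOTSCRAMBL CBE libraries FLT3 was the higher, at 64.9 ± 2.23 against 52.1 ± 0.311 CPM per kb (SD, n = 2). The ratio of FLT3 to CSF3R within a library, which no scaling between libraries can move, was 0.872 and 0.839 in the AAVS1 CBE libraries, against 1.28 and 1.21 in those of HOTSCRAMBL CBE. With KO it was 0.779 and 0.78 in AAVS1 and 0.721 and 0.679 in HOTSCRAMBL. The ratio thus lay above the control's with the base editor and below it with Cas9, without overlap in either case. The AAVS1 controls did not overlap each other either, at 0.779 and 0.78 with KO against 0.872 and 0.839 with CBE. The ratio was given no test, and where it crosses 1 depends on the annotated exon lengths.

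**Figure D2:**
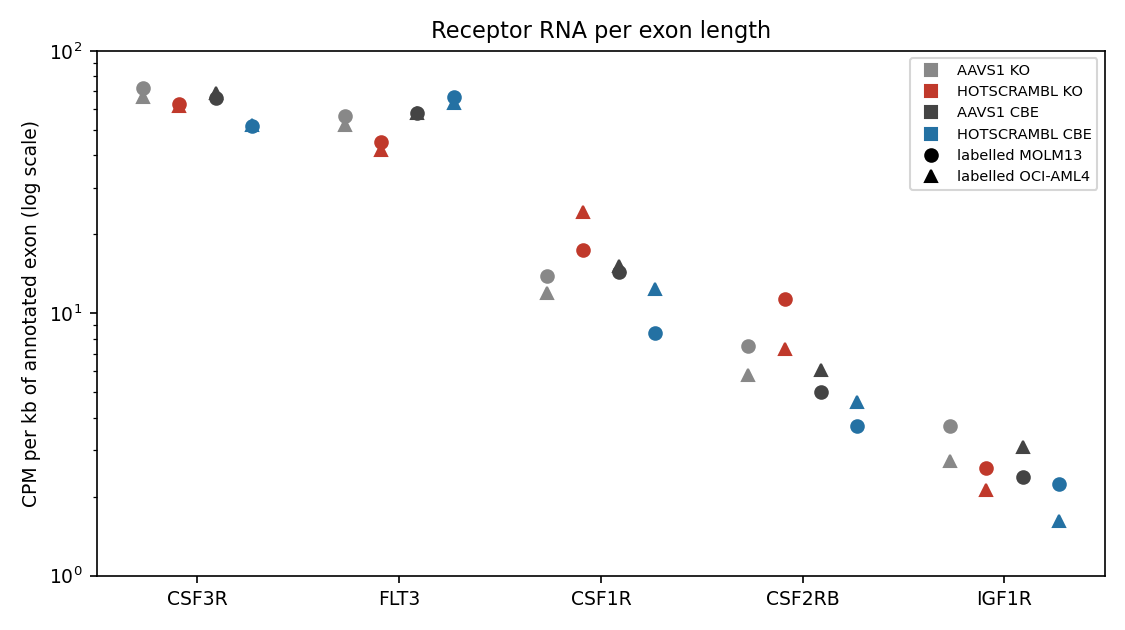
CPM per kb of annotated exon for the 5 tested receptors in each of the 8 libraries, on a log axis, with colours for groups and circles and triangles for the MOLM13 and OCI-AML4 labels. FLT3 (blue points, 63.3 and 66.5) lies above CSF3R (51.8 and 52.3) in HOTSCRAMBL CBE and below it in the other 6 libraries.

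CSF2RA and IL3RA, the ligand-binding chains that pair with CSF2RB, were listed at 0 in all 8 libraries. Both lie in the region that X and Y share (CSF2RA at 1268800 to 1310381 and IL3RA at 1336616 to 1382689, with the same coordinates on both chromosomes in GRCh38). Their RefSeq promoter windows on X and Y were also letter for letter the same. All 37 gene entries of X with a twin at the same coordinates on Y were at 0 on both chromosomes, among them SLC25A6 and CD99, which most cells use. Of the other 2459 entries on X, 1108 had a count. Per the file headers, a read that fits more than 1 place entered no count. The 0 values of CSF2RA and IL3RA are therefore not levels, and of the GM-CSF and interleukin 3 receptors only the CSF2RB chain could be compared.

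KIT, the receptor of stem cell factor, had 0 counts in 6 libraries. In HOTSCRAMBL CBE, replicate 1 held 4 counts (0.105 per 1000000 of all counts, exact 95% Poisson interval 0.0287 to 0.27) and replicate 2 held 16 (0.607 on that scale, 0.347 to 0.986). A count of 0 allows up to 3 counts, or 0.0941 and 0.112 on that scale in the AAVS1 CBE libraries. Summed over the group, KIT in HOTSCRAMBL CBE stood 6.07-fold above a floor of 3 counts in AAVS1 CBE. That fold makes no allowance for counting error in the 20 counts of HOTSCRAMBL CBE. The interval of replicate 1 (0.0287 to 0.27) took in the AAVS1 CBE floors. These intervals and floors describe counting error alone, because PCR copies could not be recognised. KIT was left out of the test for low counts, and 16 of its 20 counts came from a single library.

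CSF1R was the receptor that differed most between the editors: it was higher after HOTSCRAMBL KO and lower, short of the threshold, after HOTSCRAMBL CBE. CSF1R (ENSG00000182578, chr5:150053291-150113372, minus strand) measured 71.7 and 61.4 CPM in AAVS1 KO and 89.7 and 126 CPM in HOTSCRAMBL KO (replicates 1 and 2). In AAVS1 CBE it measured 73.8 and 77.9 CPM, and in HOTSCRAMBL CBE 43.4 and 63.7 CPM. Edited and control libraries did not overlap with either editor, and the replicates of the edited groups were far apart. With KO the log2 fold change was 0.69 ± 0.192 (SE, adjusted p = 0.0227), and it was 0.32 in the MOLM13 pair and 1.03 in the OCI-AML4 pair. With CBE it was -0.53 ± 0.193 (adjusted p = 0.0927), with -0.77 and -0.29 in the pairs. Tested directly, the KO effect exceeded the CBE effect by 1.22 ± 0.272 on the log2 scale (adjusted p = 0.0093). CSF1R was the only receptor called in this test, in which 3.19% of all genes tested were called.

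The KO call of CSF1R depended on single libraries and on scaling. It was lost without AAVS1 KO replicate 2 (0.41, adjusted p = 0.505), HOTSCRAMBL KO replicate 2 (0.48, adjusted p = 0.378) or replicate 1 (0.84, adjusted p = 0.0717), without either AAVS1 CBE library (0.69, adjusted p = 0.055 without replicate 1 and 0.0541 without replicate 2), with only the 4 KO libraries in the fit (adjusted p = 0.181) and without scaling factors (0.53, adjusted p = 0.083). The difference between editors stayed positive in all 15 alternatives, from 0.94 to 1.52. Its call was lost without AAVS1 KO replicate 2 (0.94, adjusted p = 0.222), HOTSCRAMBL KO replicate 2 (1.02, adjusted p = 0.161), AAVS1 CBE replicate 1 (1.12, adjusted p = 0.163) or replicate 2 (1.32, adjusted p = 0.0622), or HOTSCRAMBL CBE replicate 1 (1.00, adjusted p = 0.199). Within libraries, the ratio of CSF1R to FLT3 per kb rose from 0.247 and 0.229 in AAVS1 KO to 0.387 and 0.586 in HOTSCRAMBL KO. It stood at 0.248 and 0.261 in AAVS1 CBE against 0.127 and 0.195 in HOTSCRAMBL CBE. FLT3 itself moved the other way (-0.32 with KO and 0.17 with CBE), which widens this ratio. The ratio of CSF1R to CSF3R was 0.192 and 0.178 in AAVS1 KO and 0.279 and 0.397 in HOTSCRAMBL KO. With CBE that ratio overlapped, at 0.217 and 0.219 in AAVS1 against 0.162 and 0.236 in HOTSCRAMBL. CSF3R itself was lower with both editors (-0.17 and -0.38). The genes RPL7P1 and a Y RNA overlap CSF1R on the opposite strand. Strand was not used in counting, so their reads and those of CSF1R cannot be told apart where they overlap; the larger of them held 911 counts over all libraries, against 1535 to 2811 for CSF1R in each library.

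FLT3, the receptor of FLT3 ligand, had opposite directions with the editors, neither of them called. FLT3 (ENSG00000122025, chr13:28003274-28100592, minus strand) measured 234 and 217 CPM in AAVS1 KO and 187 and 173 CPM in HOTSCRAMBL KO. It measured 240 and 241 CPM in AAVS1 CBE and 276 and 263 CPM in HOTSCRAMBL CBE. The groups did not overlap with either editor, and replicates lay close together in all 4 groups. The KO log2 fold change was -0.32 ± 0.122 (adjusted p = 0.108), with -0.32 in each pair. The CBE value was 0.17 ± 0.112 (adjusted p = 0.446), and the difference between editors was -0.49 ± 0.165 (adjusted p = 0.123). DESeq2 called FLT3 with KO (-0.30, adjusted p = 0.00584) and in the difference between editors (-0.45, adjusted p = 0.00506), and edgeR called it with KO when no scaling factors were used (-0.48, adjusted p = 0.00943).

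IGF1R, the insulin-like growth factor receptor, was lower with both editors but within the error of the test. IGF1R (ENSG00000140443, chr15:98648539-98964530, plus strand) measured 51.7 and 38.2 CPM in AAVS1 KO, 36.0 and 29.5 CPM in HOTSCRAMBL KO, 33.2 and 43.2 CPM in AAVS1 CBE, and 31.2 and 22.5 CPM in HOTSCRAMBL CBE. Edited libraries were below their own controls in each case. AAVS1 CBE replicate 1, a control, was lower than HOTSCRAMBL KO replicate 1. Log2 fold changes were -0.46 ± 0.267 with KO (adjusted p = 0.361) and -0.48 ± 0.255 with CBE (adjusted p = 0.303). The difference between editors was 0.02 ± 0.372 (adjusted p = 1), with an error nearly as large as the changes themselves.

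CSF3R, the granulocyte colony-stimulating factor receptor, was lower after HOTSCRAMBL editing in every pair, and this was called with CBE. CSF3R (ENSG00000119535, chr1:36466043-36483278, minus strand) had the highest CPM of the receptors. It measured 701 and 731 CPM in AAVS1 CBE and 549 and 554 CPM in HOTSCRAMBL CBE. In AAVS1 KO it measured 767 and 708 CPM, and in HOTSCRAMBL KO 662 and 650 CPM. The groups did not overlap with either editor. With CBE, CSF3R fell by 0.38 ± 0.0903 on the log2 scale (adjusted p = 0.00658), with -0.35 and -0.40 in the pairs. With KO the change was -0.17 ± 0.0913 (adjusted p = 0.314). The difference between editors was 0.21 ± 0.128 (adjusted p = 0.503), so an effect particular to the base editor was not shown. The CBE call was lost without the replicate block (adjusted p = 0.0537), with only the 4 CBE libraries in the fit (adjusted p = 0.0972), and without AAVS1 CBE replicate 1 (-0.43, adjusted p = 0.0672) or 2 (-0.33, adjusted p = 0.175), or HOTSCRAMBL CBE replicate 1 (-0.36, adjusted p = 0.138) or 2 (-0.40, adjusted p = 0.0559). Without scaling factors CSF3R was also called lower with KO (-0.33, adjusted p = 0.0211).

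CSF2RB, the shared beta chain, followed the direction of CSF1R, but no comparison of it was called. CSF2RB (ENSG00000100368, chr22:36913628-36940439, plus strand) measured 37.4 and 29.0 CPM in AAVS1 KO and 56.5 and 36.3 CPM in HOTSCRAMBL KO. In AAVS1 CBE it measured 24.9 and 30.5 CPM, and in HOTSCRAMBL CBE 18.6 and 22.9 CPM. The KO groups overlapped, since HOTSCRAMBL KO replicate 2 lay below AAVS1 KO replicate 1, and the CBE groups did not. Log2 fold changes were 0.47 ± 0.269 with KO (adjusted p = 0.352) and -0.43 ± 0.292 with CBE (adjusted p = 0.447). The difference of 0.90 ± 0.397 between editors had an adjusted p of 0.285.

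**Figure D3:**
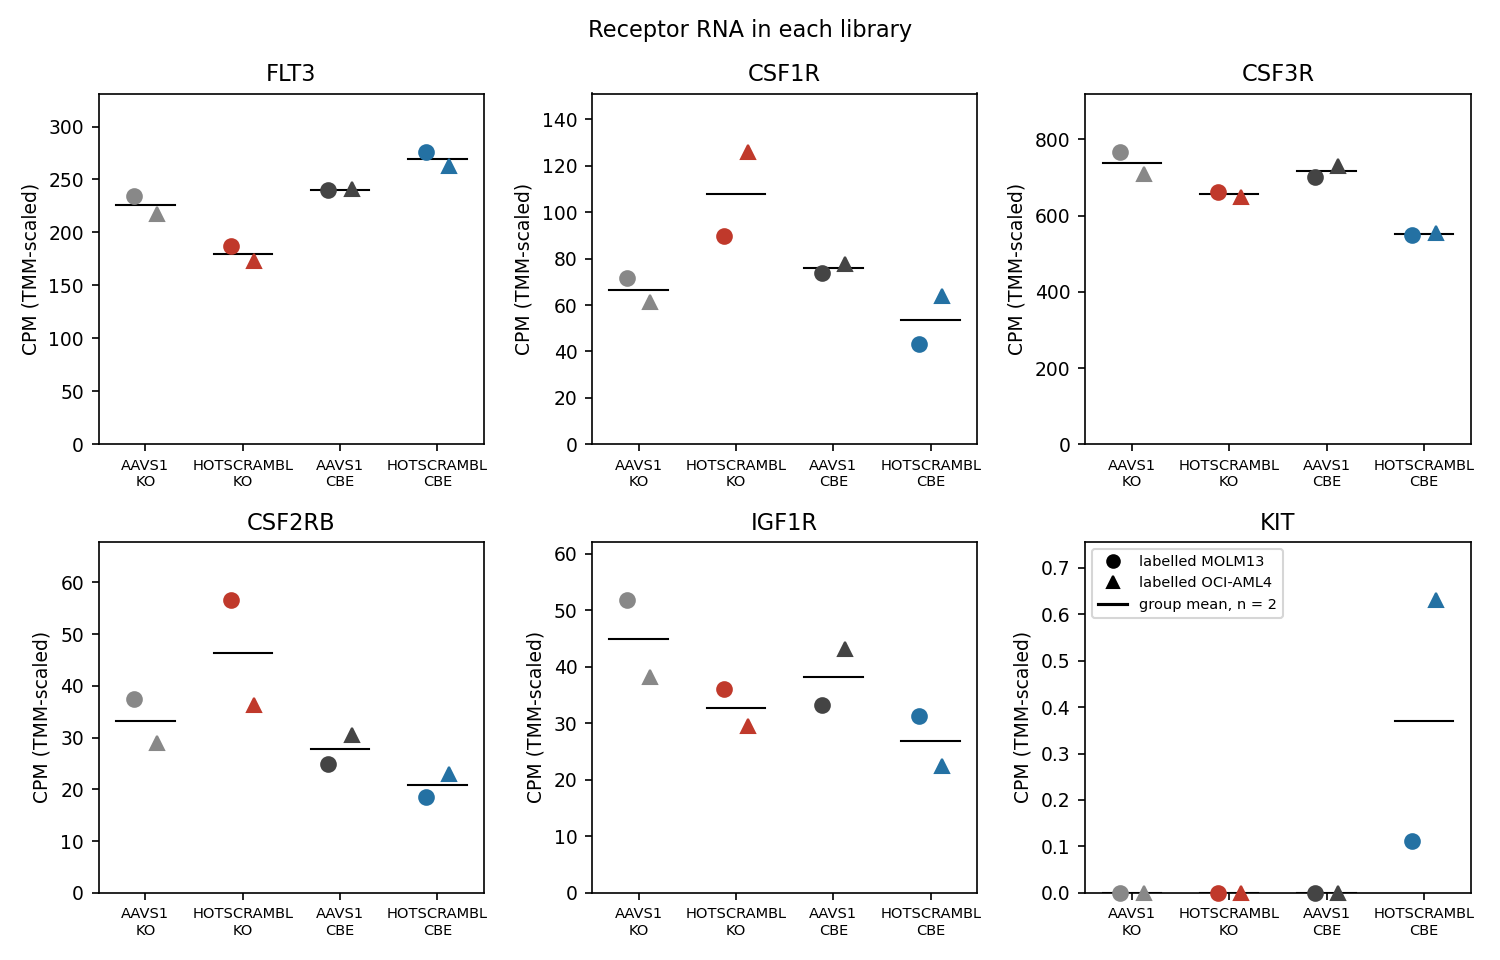
CPM after TMM scaling in each library for the 5 tested receptors and KIT, each with its own axis from 0; circles are labelled MOLM13, triangles OCI-AML4, and lines are group means (n = 2). CSF1R reaches 89.7 and 126 CPM in HOTSCRAMBL KO against 43.4 and 63.7 CPM in HOTSCRAMBL CBE, and KIT leaves 0 only in the HOTSCRAMBL CBE libraries.

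Of the 5 receptors tested, 1 was thus called with KO, against 8.76% of all genes tested (4.51% higher and 4.25% lower), and 1 with CBE, against 8.83% (4.56% higher and 4.27% lower). With so few receptors these counts do not set them apart from the rest of the table. Groups did not overlap for 4 of 5 receptors with KO and for 5 of 5 with CBE, and that held for 44.8% and 46.4% of all genes. Opposite signs with the editors were seen for FLT3, CSF1R and CSF2RB, and for 43.2% of all genes tested. In the AAVS1 KO to AAVS1 CBE comparison 0 receptors were called (0% of all genes), and the largest difference was 0.27 ± 0.276 for CSF2RB (adjusted p = 0.991). FLT3 and CSF1R nevertheless did not overlap between these controls, both lower in AAVS1 KO. Non-overlap there held for 29.8% of all genes.

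**Figure D4:**
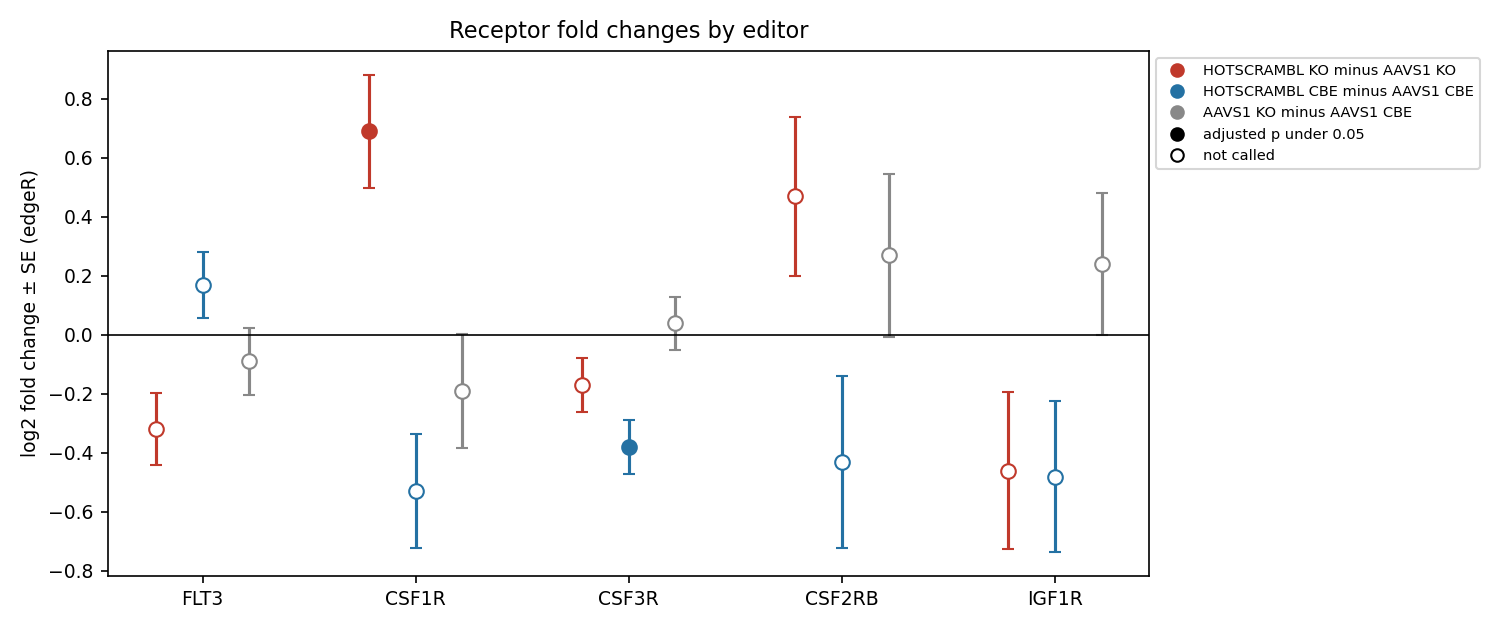
Log2 fold change ± SE from edgeR for each tested receptor: HOTSCRAMBL against AAVS1 with KO (red) and with CBE (blue), and between the AAVS1 controls of KO and CBE (grey). Filled points have an adjusted p under 0.05; these are CSF1R with KO (0.69) and CSF3R with CBE (-0.38), and CSF1R points lie on opposite sides of 0.

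The receptors' ligands were scarce. Of 10 ligand genes, CSF2, IL3 and IGF2 were at 0 and 7 were tested, and 0 were called with either editor or in their difference (edgeR; 8.76%, 8.83% and 3.19% of all genes). IGF1, the ligand of IGF1R, had the highest mean at 3.43 CPM. CSF1, a ligand of CSF1R, measured 1.99 ± 1.26 CPM in AAVS1 KO and 5.2 ± 3.89 in HOTSCRAMBL KO (SD, n = 2; log2 fold change 1.39 ± 0.715, adjusted p = 0.283). FLT3LG, the ligand of FLT3, measured 3.46 ± 0.875 and 1.15 ± 1.19 CPM in the same groups (-1.66 ± 1.04, adjusted p = 0.41). In AAVS1 CBE and HOTSCRAMBL CBE, CSF1 measured 0.284 ± 0.147 and 1.82 ± 1.05 CPM (2.66 ± 1.32, adjusted p = 0.26). FLT3LG measured 1.13 ± 1.51 and 0.924 ± 0.026 CPM there (-0.16 ± 1.25, adjusted p = 0.964).

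Among 20 kinases and adaptors that carry the receptors' signals, 2 rose and 3 fell with KO (8.76% of all genes were called), 3 rose and 3 fell with CBE (8.83%), and the list's median log2 fold changes of 0.02 and 0.04 were close to those of all genes (-0.01 and -0.02). TYK2, a JAK-family kinase, was lower with both editors: it fell by 0.96 ± 0.103 with CBE (adjusted p = 2.26e-07), from 601 ± 41.2 to 309 ± 18.5 CPM, and by 0.43 ± 0.104 with KO (adjusted p = 0.00744). Its CBE call held in all 16 alternatives; its KO call was lost without AAVS1 KO replicate 1 (adjusted p = 0.0803) or 2 (0.261), without HOTSCRAMBL KO replicate 2 (0.199), and in the fit of 4 libraries (0.105). JAK2, another kinase of the JAK family, measured 114 ± 20 and 142 ± 24.2 CPM in AAVS1 and HOTSCRAMBL KO. In AAVS1 and HOTSCRAMBL CBE, JAK2 measured 129 ± 11.6 and 79.0 ± 5.05 CPM. Its effects differed between editors by 1.01 ± 0.232 (adjusted p = 0.0118), the same sense as CSF1R.

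With KO the other named members were SOS1, the exchange factor that activates RAS, which fell by 0.92 ± 0.165 (adjusted p = 3.74e-04), the tyrosine kinase FES, which fell by 0.68 ± 0.127 (adjusted p = 5.47e-04), and the kinase SYK, which rose by 0.52 ± 0.144 (adjusted p = 0.021). With CBE they were the adaptors GRB2 (0.59 ± 0.113, adjusted p = 7.68e-04), GAB2 (0.54 ± 0.125, adjusted p = 0.00521) and IRS1 (2.87 ± 0.656, adjusted p = 0.0041), all higher. IRS1 and IRS2 dock to IGF1R and the insulin receptor. IRS1 was low, at 1.32 ± 1.57 CPM in AAVS1 CBE and 10.2 ± 2.1 in HOTSCRAMBL CBE, and its effects differed between editors (-5.63 ± 1.48, adjusted p = 0.0305), as did those of GAB2 (-0.72 ± 0.184, adjusted p = 0.0262) and IRS2 (0.89 ± 0.212, adjusted p = 0.0154). Leaving out 1 library ended the call of FES (AAVS1 KO replicate 1), SOS1 (AAVS1 KO replicate 1 or HOTSCRAMBL KO replicate 2) and GRB2 (AAVS1 CBE replicate 1), with adjusted p-values up to 0.0618, 0.0547 and 0.0686. The calls of SYK, of GAB2 with CBE and of the IRS2, GAB2 and JAK2 differences were lost in 4, 3, 7, 7 and 6 of the 8 such fits. IRS1 lost its CBE call without any 1 of the 4 CBE libraries, with values from 2.18 (without AAVS1 CBE replicate 2) to 5.45 (without AAVS1 CBE replicate 1). Its editor difference was lost in all 8 fits, from -12.46 (without HOTSCRAMBL KO replicate 2) to -4.46 (without HOTSCRAMBL KO replicate 1), and DESeq2 called IRS1 in neither.

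Among 12 negative regulators, 2 rose and 3 fell with KO and 2 rose and 0 fell with CBE, beside 8.76% and 8.83% of all genes called (median log2 fold changes 0.01 and 0.20). SOCS1, which blocks JAK kinases, rose most: it measured 23.5 ± 2.24 CPM in AAVS1 KO and 111 ± 2.84 in HOTSCRAMBL KO, a log2 fold change of 2.24 ± 0.227 (adjusted p = 6.99e-08) that was called in all 16 alternatives. In AAVS1 CBE and HOTSCRAMBL CBE it measured 21.9 ± 6.47 and 30.3 ± 2.16 CPM, and the effects differed between editors by 1.73 ± 0.356 (adjusted p = 0.00463). That difference was lost without AAVS1 KO replicate 1 (adjusted p = 0.0831) or 2 (0.0737), HOTSCRAMBL KO replicate 1 (0.0651), AAVS1 CBE replicate 2 (0.136) or HOTSCRAMBL CBE replicate 2 (0.0764). SOCS2 went the other way, from 127 ± 22.4 to 74.3 ± 5.84 CPM with KO (-0.78 ± 0.164, adjusted p = 0.00214), and its effects also differed (-1.08 ± 0.216, adjusted p = 0.00328). Both SOCS2 calls were lost without AAVS1 KO replicate 1 or 2 or HOTSCRAMBL KO replicate 2, with adjusted p-values up to 0.114, and that of the difference also without replicate 2 of AAVS1 CBE or HOTSCRAMBL CBE.

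PTPN6, the phosphatase SHP-1, rose with both editors, by 0.49 ± 0.102 with KO (adjusted p = 0.00192) and 0.77 ± 0.1 with CBE (adjusted p = 5.80e-06). Its KO call was lost without replicate 2 of AAVS1 KO or HOTSCRAMBL KO (adjusted p up to 0.185) and without the replicate block, and PTPN6 was also called between the line labels (-0.36 ± 0.0715, adjusted p = 0.0116). INPP5D, the lipid phosphatase SHIP1, fell with KO by 0.60 ± 0.103 (adjusted p = 2.04e-04), and the call held in all 16 alternatives. CISH, a SOCS-family gene induced by STAT5, rose with CBE by 0.51 ± 0.152 (adjusted p = 0.0317), a call lost in each of the 8 fits that left out a library (0.31 to 0.72, adjusted p up to 0.591). SPRED1, an inhibitor of the RAS cascade, was low in CPM, at 9.73 ± 1.32 in AAVS1 KO, 0.714 ± 1.01 in HOTSCRAMBL KO, 8.22 ± 0.97 in AAVS1 CBE and 12.7 ± 2.72 in HOTSCRAMBL CBE. Its effects differed between editors (adjusted p = 0.0101), a call that DESeq2, limma-voom and 7 of the 8 fits without a library did not give.

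Of 12 genes that STAT5 or ERK are known to induce, 1 rose and 2 fell with KO and 3 rose and 2 fell with CBE, beside 8.76% and 8.83% of all genes called, with medians of -0.01 and 0.56. With CBE the cyclin gene CCND2 rose from 137 ± 11.7 to 249 ± 15.5 CPM (0.87 ± 0.126, adjusted p = 2.31e-05; called in all 16 alternatives), and the kinase gene PIM1 from 260 ± 40 to 387 ± 14.7 CPM (0.57 ± 0.114, adjusted p = 0.00119). EGR1, an early ERK target, fell by 0.61 ± 0.111 with CBE (adjusted p = 4.68e-04). MCL1, a survival gene of the BCL2 family, was lower with both editors. It fell by 0.72 ± 0.116 with KO (adjusted p = 8.07e-05; called in all 16 alternatives) and by 0.55 ± 0.111 with CBE (adjusted p = 0.00132). The CBE calls of PIM1 (without replicate 2 of either CBE group, adjusted p up to 0.168), EGR1 (without AAVS1 CBE replicate 2 or HOTSCRAMBL CBE replicate 1, up to 0.0713) and MCL1 (without replicate 1 of either CBE group, up to 0.117) each rested on 2 libraries.

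ETV4, an ERK-induced factor, fell with KO from 21.0 ± 1.64 to 3.25 ± 2.43 CPM (-2.63 ± 0.562, adjusted p = 0.00244), and its effects differed between editors (-2.92 ± 0.678, adjusted p = 0.0128). Its KO call was lost without AAVS1 KO replicate 2 or HOTSCRAMBL KO replicate 1 (adjusted p up to 0.19), and its KO value ran from -4.02 without HOTSCRAMBL KO replicate 2 to -1.82 without HOTSCRAMBL KO replicate 1. CCND3 effects differed by -1.03 ± 0.219 (adjusted p = 0.00605). The differences of ETV4 and CCND3 were each lost in 6 of the 8 fits without a library. DUSP4, an ERK phosphatase, had 0 counts in both AAVS1 groups, 166 in HOTSCRAMBL KO and 100 in HOTSCRAMBL CBE. With 3 counts over the group as the floor it was at least 59.6-fold higher with KO (adjusted p = 0.0223) and at least 30.3-fold higher with CBE (adjusted p = 0.137). The HOTSCRAMBL KO libraries varied widely (4.15 ± 4.09 CPM), and the KO call was lost in 5 of the 8 fits without a library and by DESeq2. In HOTSCRAMBL CBE the SD was larger than the mean of 1.39 CPM, so nearly all of the 100 counts came from a single library. The 59.6-fold and 30.3-fold bounds therefore hold for the summed groups and not for each library.

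**Figure D5:**
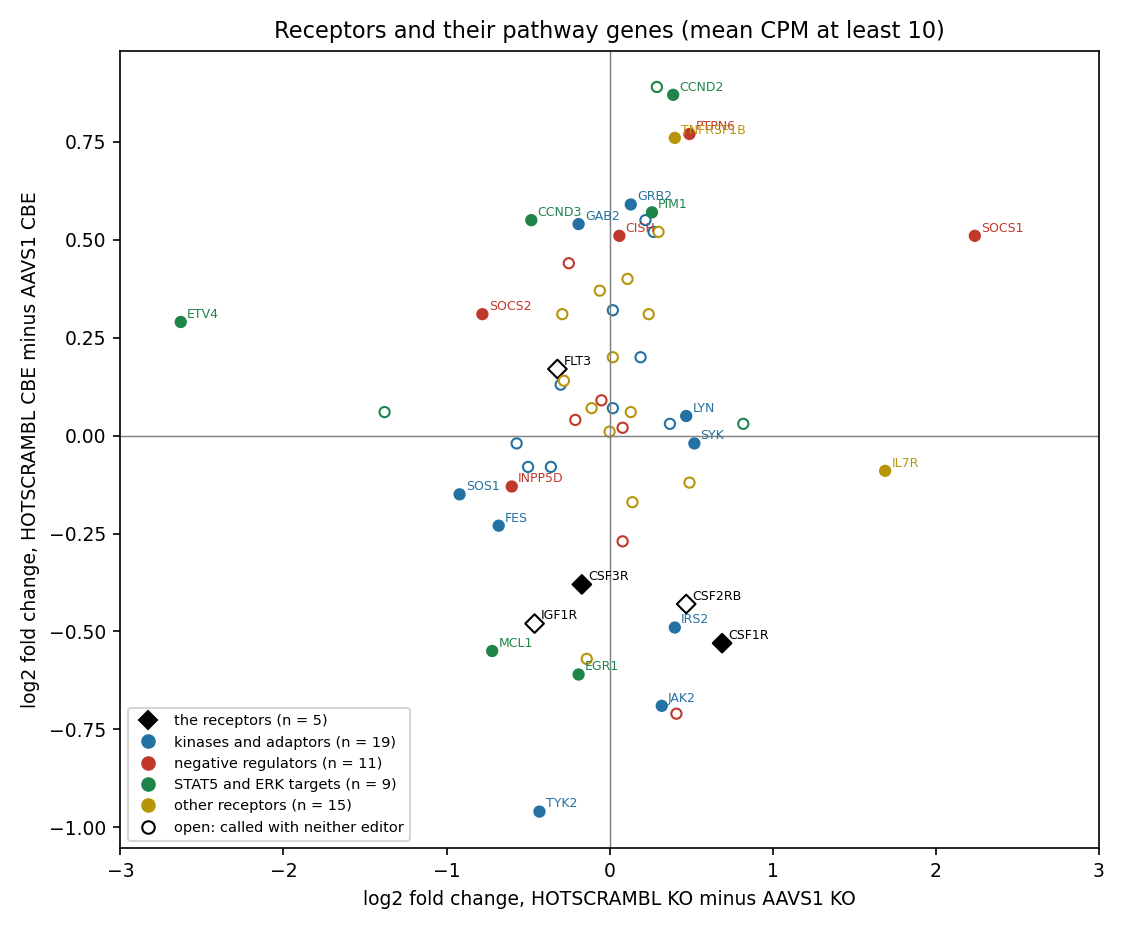
Log2 fold changes with KO (horizontal) and CBE (vertical) for the receptors (diamonds) and genes of the kinase and adaptor, negative regulator, target and other receptor lists (circles) whose mean was at least 10 CPM. Filled symbols were called with at least 1 editor; CSF1R and CSF2RB lie at lower right, FLT3 at upper left, CSF3R and IGF1R at lower left, and SOCS1 far right at 2.24.

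Of 24 other receptors 22 were tested, and 3 rose with KO, 1 rose with CBE and 0 fell with either, beside 8.76% of all genes called with KO and 8.83% with CBE. With KO, IL7R, the interleukin 7 receptor, went from 14.3 ± 6.78 to 46.5 ± 14.8 CPM (1.69 ± 0.35, adjusted p = 0.00181). MERTK and AXL, tyrosine kinase receptors of the same family used by macrophages, went from 1.54 ± 1.95 to 13.5 ± 4.12 CPM (3.13 ± 0.704, adjusted p = 0.00397) and from 3.12 ± 1.58 to 14.2 ± 0.487 CPM (2.19 ± 0.558, adjusted p = 0.011). Without replicate 1 of AAVS1 KO or of HOTSCRAMBL KO the calls of IL7R, MERTK and AXL were lost (adjusted p up to 0.287, 0.391 and 0.283), and without single libraries their log2 fold changes ran from 1.11 to 2.44, 1.86 to 6.69 and 1.73 to 2.86. The lowest of each came without AAVS1 KO replicate 1 and the highest without AAVS1 KO replicate 2. The call of AXL was also lost without replicate 2 of either KO group, and limma-voom did not call MERTK (adjusted p = 0.0671). TNFRSF1B, a TNF receptor, rose with CBE from 55.1 ± 7.02 to 92.8 ± 2.26 CPM (0.76 ± 0.173, adjusted p = 0.00456), a call lost without AAVS1 CBE replicate 1 or either HOTSCRAMBL CBE library (adjusted p up to 0.245).

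Some neighbours of the receptors were called where the receptor beside them was not. PAN3, a subunit of a poly(A) nuclease that lies beside FLT3, fell with KO from 401 ± 14.1 to 230 ± 4.77 CPM (-0.80 ± 0.107, adjusted p = 5.41e-06), and its effects differed between editors (-0.90 ± 0.145, adjusted p = 3.26e-04). Both PAN3 calls held in every alternative run, and FLT3 had the same signs (-0.32 and -0.49) without being called. HMGXB3, beside CSF1R, fell with KO by 0.59 ± 0.173 (adjusted p = 0.0311), where CSF1R rose; that call was lost in 5 of the 8 fits without a library, with adjusted p up to 0.495. NCF4, a subunit of the phagocyte oxidase beside CSF2RB, fell with CBE from 306 ± 9.87 to 184 ± 27.2 CPM (-0.75 ± 0.119, adjusted p = 8.67e-05; called in all 16 alternatives), and its effects differed between editors by 0.83 ± 0.167 (adjusted p = 0.00354), a call lost in 6 of the 8 fits without a library, with adjusted p up to 0.125. CSF2RB had the same signs and was not called (-0.43 with CBE and 0.90 in the difference). MRPS15, beside CSF3R, had a KO log2 fold change of -0.01 ± 0.299 (adjusted p = 0.999). Of 17 such neighbours 6 were tested, and 2 fell with KO (4.25% of all genes did) and 1 with CBE (4.27%).

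Of the 10 myeloid markers, 2 rose and 0 fell with each editor (8.76% of all genes were called with KO and 8.83% with CBE), and with KO 5 had a positive and 5 a negative fold change. LYZ, the lysozyme gene of granulocytes and monocytes, rose from 130 ± 14.9 to 604 ± 139 CPM with KO (2.20 ± 0.125, adjusted p = 9.41e-13), and its effects differed between editors by 1.97 ± 0.18 (adjusted p = 8.25e-08). ITGB2, the shared chain of leukocyte integrins, rose with KO by 0.66 ± 0.114 (adjusted p = 2.31e-04) and with CBE by 0.56 ± 0.113 (adjusted p = 0.00121), and PTPRC (CD45) rose with CBE by 0.67 ± 0.16 (adjusted p = 0.00647). The ITGB2 and PTPRC calls with CBE were each lost without AAVS1 CBE replicate 2 or HOTSCRAMBL CBE replicate 2, that of ITGB2 also without AAVS1 CBE replicate 1 and that of PTPRC without HOTSCRAMBL CBE replicate 1 (adjusted p up to 0.0716 and 0.238). Among the negative values with KO were those of ITGAM, an integrin partner of ITGB2 (-0.84 ± 0.308, adjusted p = 0.1), MPO, the granule peroxidase of granulocyte precursors (-0.74 ± 0.254, adjusted p = 0.0696), and CD33 (-0.32 ± 0.134, adjusted p = 0.165).

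The summed level of the 10 myeloid markers was 1031 to 1066 CPM in AAVS1 KO, 1483 to 1655 in HOTSCRAMBL KO, 958 to 960 in AAVS1 CBE and 1017 to 1097 in HOTSCRAMBL CBE. Without LYZ the other 9 markers summed to 890 to 946, 953 to 977, 818 to 842 and 869 to 945 CPM in the same order, so LYZ made up most of the KO difference. That of 14 markers of other lineages was 108 to 109, 159 to 195, 103 to 105 and 117 to 118 CPM, again in that order. Most of the latter was PECAM1, an endothelial marker that myeloid cells also carry, which rose with KO (0.74 ± 0.149, adjusted p = 0.00124; lost without replicate 1 of either KO group, adjusted p up to 0.0887). The part of these marker changes in the CSF1R result was not tested.

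Across the 8 libraries the receptors fell into patterns that can only be described, since the points share the same 4 groups. FLT3 ran against CSF1R (Pearson r of log2 CPM -0.860) and CSF2RB (-0.800), CSF1R ran with CSF2RB (0.707), and CSF3R ran with IGF1R (0.848). Among 9624 tested genes with a mean of at least 10 CPM, those most like FLT3 were LMNB1, a nuclear lamin (0.991), and NDC80, a kinetochore gene (0.988). Most like CSF1R were ENSG00000280128, which has no symbol, and FAM104A (0.965 and 0.963), and most like CSF3R were CAPN10 and PIGG (0.994 and 0.990). CSF2RB was closest to MAN1B1 and NETO2 (0.971 and 0.967), and IGF1R to PSMC3IP and HSP90AA2P (0.967 and 0.964). These are the highest of 9624 values over 8 points for each receptor and carry no test.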

How the data were processed

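ChIRP RNA was sequenced from 8 libraries, 2 in each of 4 groups, with groups and line labels taken from the sample titles. The deposited table holds raw counts per gene that the authors made with featureCounts 2.0.6. The annotation was Ensembl 112 (GRCh38). Per the file headers, strand was not used, both reads of a pair were counted, and reads that fitted several positions or genes entered no count. The aligner's version is not given in the sources used here. Of 63140 genes, 62541 (99.05%) had a symbol, and 0 library columns were left unmapped.

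Counts were fitted with edgeR 4.0.16 in R 4.3.3 (robust quasi-likelihood F-test, TMM scaling, filterByExpr with a minimum count of 10, 24057 genes) with terms for the 4 groups and the line label, leaving 3 residual degrees of freedom. The comparisons were HOTSCRAMBL against AAVS1 within each editor, the difference of these effects, the controls against each other, and the line labels. The SE of a log2 fold change is its size over the square root of F. Benjamini-Hochberg adjustment ran over all genes tested, with a threshold of 0.05. The code was tested on simulated data. Alternatives were DESeq2 1.42.0, limma-voom (limma 3.58.1), other scaling, no filter, no replicate block, 4-library fits, leaving out each library, and, chosen after seeing the data, edgeR's earlier quasi-likelihood method. CPM are counts scaled to 1000000 after TMM. Figures and descriptions used Python 3.11.15 with pandas 2.3.3.

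Replicate numbers pair the samples through the stated cell line, as labelled. The data separate these labels little, and whether they name the right lines was not tested. Deviations from group means correlated across genes between same-numbered libraries with r from 0.00851 to 0.0245. The chi-square per degree of freedom between libraries of a group was 38.5 to 46.4, well over counting noise, and none was treated as a repeat. Nothing says that samples of a line came from separate cultures, so p-values measure the spread between these samples.

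The receptors and gene lists were chosen with earlier results of these data known. The text names all 8 receptors and, per list and comparison, at most 4 called genes in order of p, along with some ligands, neighbours and markers chosen after their values were seen. Likeness names the 2 genes with the highest Pearson r for each receptor. Promoter windows are RefSeq's (GRCh38.p14).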

Additional observations from a re-analysis of the deposited data

Results flagged for a closer look

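The effect of HOTSCRAMBL editing on CSF1R, the macrophage colony-stimulating factor receptor, differed between the editors by 1.22 ± 0.272 on the log2 scale (edgeR, adjusted p = 0.0093), in a direct test of KO against CBE. In pairs of libraries that share a line label, the log2 ratios were 0.32 and 1.03 with KO and -0.77 and -0.29 with CBE. Since edited and control libraries did not overlap, any pairing of them gives the same sign, so this adds no support. The difference stayed between 0.94 and 1.52 under all 15 alternatives and was called in 10 of them. LYZ effects differed in the same comparison by 1.97 ± 0.18, and the part of that in the CSF1R result was not tested.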

How the results depend on the processing

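Receptor fold changes stayed on the same side of 0 and of the threshold in 347 of 385 alternatives, crossed the threshold in 24 (18 lost, 6 gained) and changed sign in 14. Sign changes met only values about as large as their SE or smaller. The largest were 0.27 ± 0.276 for CSF2RB and 0.24 ± 0.241 for IGF1R, both between the controls. In the editor difference, IGF1R went to -0.01 with limma-voom. It went to -0.14 and -0.06 without AAVS1 KO replicate 2 and HOTSCRAMBL KO replicate 1. Without AAVS1 CBE replicate 2 and HOTSCRAMBL CBE replicate 2 it went to -0.32 and -0.14, in a range up to 0.46. Between the controls, CSF1R went to 0.09 without AAVS1 KO replicate 2 (range from -0.49). CSF3R went there to -0.03 and -0.01 without replicate 1 of AAVS1 KO and AAVS1 CBE (range to 0.10). Also between the controls, without AAVS1 CBE replicate 1, CSF2RB went to -0.03 (range to 0.54) and IGF1R to -0.16 (range to 0.62). Between line labels, CSF3R went to -0.02 without either AAVS1 KO library (range to 0.04). CSF2RB went to -0.06 without either HOTSCRAMBL KO library (range to 0.28).

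The number of receptors called with KO, 1 as reported, was 2 without scaling and with DESeq2, 0 in the 4-library fit, and 0 to 1 without single libraries. With CBE it was 2 without scaling and with DESeq2, 0 without the replicate block, 0 in the 4-library fit, and 0 to 1 without single libraries; in the editor difference it was 2 with DESeq2 and 0 to 1 without single libraries. Over all genes, calls with KO (2108) were 661 in the 4-library fit, 4231 with DESeq2 and 677 to 1674 without single libraries. Calls with CBE (2124) were 528, 3439 and 586 to 1885. Calls in the editor difference (767) were 503 with no replicate block, 2291 with DESeq2 and 226 to 372 without single libraries. Between controls (0) they were 35 with DESeq2 and 1 with limma-voom, and between line labels (119) 193 with edgeR's earlier method, 778 with DESeq2, 250 with limma-voom and 26 to 65 without single libraries. Leaving out the replicate block changed no receptor call other than that of CSF3R with CBE (adjusted p = 0.0537), and of the other named calls it ended those of SYK, PTPN6, DUSP4 and HMGXB3 with KO, of CISH with CBE, and of GAB2 in the editor difference. With only the 4 libraries of a contrast in the fit, the named KO calls of TYK2, SYK, SOCS2, PTPN6, ETV4 and DUSP4 were lost. So were the KO calls of IL7R, MERTK, AXL, HMGXB3 and PECAM1. The same fit ended the CBE calls of GRB2, GAB2, IRS1, CISH, PIM1, MCL1, TNFRSF1B, PTPRC and ITGB2. Fits that left out a library or used 4 had fewer samples. For the other changes the cause was not tested. A fit without 1 library assumes that the lone sample of its group varies like the others.

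Without scaling factors the median of all genes moved to -0.17 with KO and -0.15 with CBE, and the split of higher to lower calls went from 1085 and 1023 to 840 and 1695 with KO, and from 1096 and 1028 to 782 and 1616 with CBE. Other named fold changes kept their call in 592 of 803 alternatives, lost it in 211 and reversed in 0. Counts of called genes per list and direction moved in 115 of 616. Low counts limited what could be compared for KIT and the ligands, and uncounted multi-position reads did so for CSF2RA and IL3RA. Why KIT and the ligands had low counts was not tested.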
